A study of Homo sapiens with 6 samples.

Results

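Long noncoding RNAs (lncRNAs) are transcripts that are not translated into a known protein, and most are expressed at low levels. The 71 genes described here were chosen by level: they are the genes that the deposited table types as lncRNA and that had a mean of at least 5 FPKM (sequenced fragments scaled by gene length and by the fragments mapped in the library) over all 6 libraries. They are 71 of 14484 lncRNAs and of 58395 genes in the table, of which 8458 lncRNAs were listed at 0 in every library. The imprinted lncRNAs H19, MEG3 and MEG8 were kept out by name, and with means of at most 0.0471 FPKM they would not have reached the threshold. Since level chose the members, their levels are a description. Of the 71, 50 had a mean of at least 5 FPKM in both groups, 8 in sgPLOD2 only and 13 in sgControl only, so the ones that reached it in 1 group only had to differ to some degree.

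The libraries came from 786-O cells, an established human line of clear cell renal carcinoma origin without working VHL, grown in RPMI-1640 with 10% fetal bovine serum. In the 3 sgPLOD2 libraries, PLOD2, the gene of the collagen-modifying enzyme lysyl hydroxylase 2, had been targeted with CRISPR/Cas9. The 3 sgControl libraries came from the control cells. Total RNA was sequenced from each. Whether the edited cells were 1 clone or a pool, and whether replicates were separate cultures, is not given in the sources used here, so a p-value here reflects the variation among 6 libraries, part or all of which can be technical.

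A pair of lncRNA classes recurs below. Host genes of small nucleolar RNAs (snoRNAs) carry in their introns the short RNAs that guide chemical modification of ribosomal RNA. After splicing the introns yield snoRNAs, while the joined exons, in a number of hosts, begin with a pyrimidine tract like that of ribosomal protein mRNAs and are degraded by nonsense-mediated decay once translated. Antisense and divergent lncRNAs are transcribed from the strand opposite a protein-coding gene, often from a shared promoter, and some regulate that neighbour.

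The groups differed beyond PLOD2. PLOD2 itself averaged 7.57 ± 2.21 FPKM in sgPLOD2 and 24.7 ± 2.80 FPKM in sgControl (SD, n = 3 each), a log2 fold change of -1.61, adjusted p = 0.000509. HIF1A, a transcription factor subunit that 786-O cells are known to lack as protein, had 35.6 to 39.1 FPKM in sgPLOD2 and 0.311 to 0.539 FPKM in sgControl (log2 fold change 4.77, adjusted p = 9.93e-07). A difference between the groups that was there before PLOD2 was targeted cannot be told apart from an effect of its loss. FPKM summed to between 229485 and 238801 in sgPLOD2 and between 243422 and 268612 in sgControl, and mitochondrial transcripts took 12.9% of it in sgControl replicate 1 and 6.01% to 7.50% elsewhere. The kidney factors PAX8 and PAX2, keratins 8 and 18, vimentin and N-cadherin were expressed in every library. These 6 markers summed to 1108 to 1177 FPKM in sgPLOD2 and 1239.6 to 1592 FPKM in sgControl, most of it vimentin. PAX2 was the lowest, averaging 1.28 FPKM in sgPLOD2 and 1.88 FPKM in sgControl. PAX2 (-0.33, adjusted p = 0.0191) and vimentin (-0.36, adjusted p = 0.0473) were called lower and N-cadherin higher (0.57, adjusted p = 0.0159), and the others were not called. Blood and endothelial markers CD3E and VWF were listed at 0 in every library, PTPRC, PECAM1 and CDH5 stayed at or under 0.00628 FPKM, and the epithelial markers EPCAM and CDH1 summed to 0.929 to 1.16 FPKM in sgPLOD2 and 0.491 to 0.613 FPKM in sgControl. CD68, a lysosomal glycoprotein gene used as a macrophage marker, had 5.29 to 6.41 FPKM in sgPLOD2 and 11.4 to 18.2 FPKM in sgControl. Albumin reached at most 0.00849 FPKM in sgPLOD2 and 0.289 to 0.524 FPKM in sgControl. The part of these differences in the results below was not tested.

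More of the well expressed lncRNAs were lower in sgPLOD2 than higher. On log2(FPKM + 1), the scale of every fold change below and one that understates changes of low values, limma called 16 of the 71 higher and 29 lower at an adjusted p under 0.05, and 26 were not called. Of all 10469 genes tested, 52.9% were called, 29.5% as higher and 23.5% as lower, whereas of the 374 tested lncRNAs 20.1% were called higher and 30.5% lower. The members' shares were 22.5% and 40.8%, while 1368 (24.0%) of the 5689 tested genes that reached the same 5 FPKM were called higher and 1651 (29%) lower. The median fold change was -0.30 over the members, 0.06 over all genes tested, -0.03 over the genes with at least 5 FPKM and -0.10 over tested lncRNAs. Among the 50 members with at least 5 FPKM in both groups, 8 were called higher and 20 lower, with a median of -0.29. In bulk RNA, fewer cells of a kind and less RNA per cell cannot be told apart.

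The 3 libraries of each group showed every sgPLOD2 library above every sgControl library in 15 members and every one below in 33, while 23 overlapped. These are 21.1% and 46.5% of the members. Over all tested genes those shares were 34.7% and 28.0%, over tested genes with at least 5 FPKM 28.9% and 33.6%, and over tested lncRNAs 23.3% and 36.9%. Changes of at least 1 on the log2 scale were called for 5 members in each direction, so most called members moved by less. Among the 50 members with at least 5 FPKM in both groups, called changes of that size were 0 rises and 3 falls. All 5 such rises thus reached the threshold through sgPLOD2 only. Among the falls of that size, MIR155HG and AC067773.1 reached it through sgControl only. Over all 10469 tested genes, 527 rises and 409 falls of that size were called. With a smooth trend of the fold changes over GC content and length taken out, the members' median was -0.09 and 20 members were called higher and 25 lower. With the same total per library 18 were called higher and 26 lower. Of all tested genes, 25.0% were called higher and 19.6% lower with the GC and length trend taken out. With the same total per library those shares were 35.5% and 17.5%. The call of 10 lower and 4 higher members was lost in at least 1 of 19 alternative settings.

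**Figure D1:**
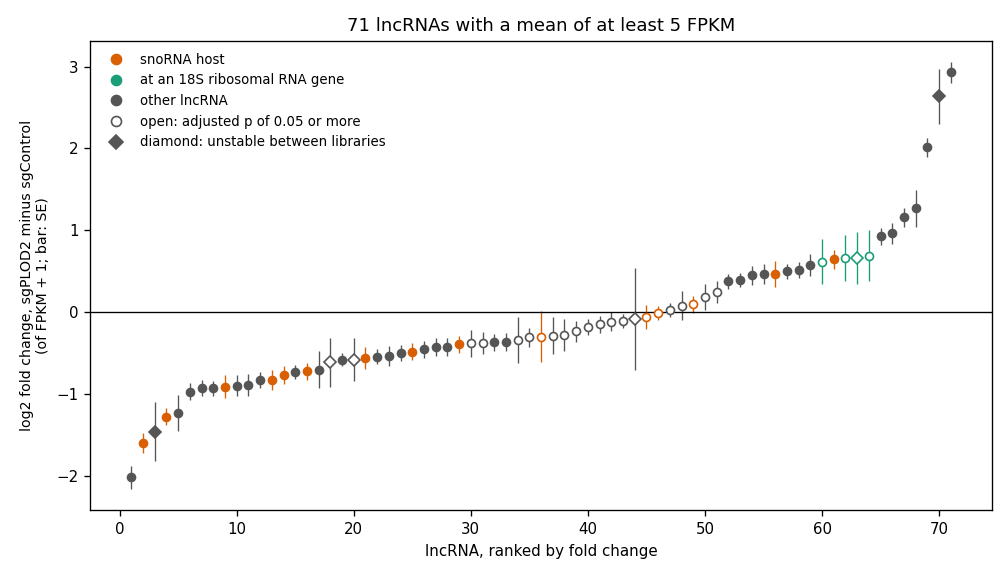
Each of the 71 lncRNAs is a point, ranked by its log2 fold change of FPKM + 1 (sgPLOD2 minus sgControl, y axis) with its standard error, and coloured as snoRNA host, lncRNA at an 18S ribosomal RNA gene or other. Filled points passed the adjusted p of 0.05 (16 above 0 and 29 below), and diamonds mark the 6 lncRNAs that were unstable between libraries. The values run from -2.02 for MIR155HG to 2.93 for AC245041.1.

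Of the 15 snoRNA host genes, 9 fell, 2 rose and 4 were not called, and their median fold change was -0.48. SNHG3, which fell, averaged 4.40 FPKM in sgPLOD2, and SNHG1, which rose, averaged 4.82 FPKM in sgControl. Both reached 5 FPKM through 1 group only, so they had to differ to some degree. Of all tested genes with at least 5 FPKM, 29% were called lower and 24.0% higher. The summed level of the hosts was 222 to 269 FPKM in sgPLOD2 and 326 to 360 FPKM in sgControl. As a share of all FPKM it was 0.0966% to 0.112% in sgPLOD2 and 0.134% to 0.139% in sgControl. The groups did not overlap on either scale. Of all tested genes, 28.0% had every sgPLOD2 library below every sgControl library, and of those with at least 5 FPKM 33.6% did. Such a share was not computed for sums of genes. The hosts ranged in mean level between 5.67 FPKM for SNHG3 and 56.0 FPKM for SNHG6.

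SNHG19 (GRCh38, chromosome 16, 2154797 to 2155358, minus strand), the host of SNORD60, had 7.69, 7.07 and 7.70 FPKM in the sgPLOD2 libraries, against 28.9, 21.2 and 24.3 FPKM in the sgControl libraries. Every sgPLOD2 library was far under the lowest control library (log2 fold change -1.60 ± 0.12 (SE), adjusted p = 8.76e-05). SNHG7 (GRCh38, chromosome 9, 136721366 to 136728184, minus strand), which hosts snoRNAs of the SNORA17 family, had 11.4, 11.1 and 9.66 FPKM in the sgPLOD2 libraries, against 27.1, 25.2 and 29.8 FPKM in the sgControl libraries. The groups were again well apart, with 39.2% of the control mean left in sgPLOD2 (log2 fold change -1.28 ± 0.10 (SE), adjusted p = 0.000107). SNHG6, the host of SNORD87 and the most abundant of the hosts, had 46.5, 38.8 and 31.3 FPKM in the sgPLOD2 libraries, against 70.4, 70.5 and 78.4 FPKM in the sgControl libraries. No library overlapped (log2 fold change -0.91 ± 0.14 (SE), adjusted p = 0.00193).

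GAS5, named for its rise in growth-arrested cells and known as a decoy of the glucocorticoid receptor, had 11.5, 10.2 and 8.88 FPKM in the sgPLOD2 libraries, against 16.3, 18.5 and 19.1 FPKM in the sgControl libraries. It fell in sgPLOD2, each library there being below each control library (log2 fold change -0.77 ± 0.11 (SE), adjusted p = 0.00154). GENCODE release 29 places no snoRNA in GAS5, while RefSeq lists 11 within its bounds. SNHG8, host of SNORA24, averaged 12.4 ± 2.06 FPKM in sgPLOD2 and 22.7 ± 1.33 FPKM in sgControl (SD, n = 3 each; -0.83, adjusted p = 0.00169), and SNHG18, host of SNORD123, averaged 11.8 ± 1.12 FPKM in sgPLOD2 and 20.2 ± 1.65 FPKM in sgControl (-0.72, adjusted p = 0.00120). Both fell with no overlap between groups.

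SNHG3, host of the SNORA73 pair, had 4.83, 4.81 and 3.57 FPKM in the sgPLOD2 libraries, against 7.83, 6.64 and 6.31 FPKM in the sgControl libraries (-0.56, adjusted p = 0.0102). ZFAS1, an antisense neighbour of ZNFX1 that hosts the SNORD12 family, had 16.7, 15.4 and 14.0 FPKM in the sgPLOD2 libraries, against 23.8, 19.3 and 22.4 FPKM in the sgControl libraries (-0.48, adjusted p = 0.00871). In both, the 3 sgPLOD2 libraries were the lowest of the 6, but the call of ZFAS1 was lost when the GC and length trend was removed (-0.19, adjusted p = 0.186). SNHG29, host of SNORD49A, SNORD49B and SNORD65, averaged 31.5 ± 3.28 FPKM in sgPLOD2 and 41.5 ± 3.35 FPKM in sgControl and fell by 0.39 on the log2 scale (adjusted p = 0.0186), a call lost in 6 of 19 alternatives, among them the omission of sgControl replicate 2 (-0.34, adjusted p = 0.0542), of sgControl replicate 3 (-0.37, adjusted p = 0.0579), of sgPLOD2 replicate 2 (-0.40, adjusted p = 0.0520) and of sgPLOD2 replicate 3 (-0.31, adjusted p = 0.0570).

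SNHG1 and SNHG5 went the other way. SNHG1 (GRCh38, chromosome 11, 62851984 to 62855953, minus strand), which hosts SNORD22 and a row of further box C/D snoRNAs, had 7.08, 9.26 and 8.04 FPKM in the sgPLOD2 libraries, against 4.30, 5.29 and 4.87 FPKM in the sgControl libraries. It rose with every sgPLOD2 library above every control library (log2 fold change 0.65 ± 0.12 (SE), adjusted p = 0.00375). SNHG5, host of SNORD50A and SNORD50B, had 44.2, 38.3 and 32.9 FPKM in the sgPLOD2 libraries, against 33.0, 22.6 and 27.3 FPKM in the sgControl libraries. Its lowest sgPLOD2 library lay just below its highest control library, and its rise (0.47, adjusted p = 0.0420) was not called in 7 of 19 alternatives. With each chromosome's median fold change removed it was 0.12, adjusted p = 0.553, the median of the 511 tested genes of chromosome 6 being 0.35, and it was 0.37, adjusted p = 0.127 without sgPLOD2 replicate 1, 0.47, adjusted p = 0.102 without sgPLOD2 replicate 2, 0.34, adjusted p = 0.107 without sgControl replicate 2 and 0.47, adjusted p = 0.0912 without sgControl replicate 3.

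The remaining hosts overlapped between groups. DANCR, host of SNORA26, had 6.24, 5.51 and 5.76 FPKM in the sgPLOD2 libraries, against 6.01, 5.53 and 6.15 FPKM in the sgControl libraries. SNHG15, host of SNORA9, averaged 5.81 FPKM in sgPLOD2 and 6.05 FPKM in sgControl (-0.05, adjusted p = 0.780). SNHG32, which hosts SNORD48 and SNORD52 and which GENCODE release 29 types as protein-coding, averaged 35.3 FPKM in sgPLOD2 and 33.1 FPKM in sgControl (0.09, adjusted p = 0.466), and SNHG16, host of the SNORD1 family, had 5.96, 11.8 and 11.0 FPKM in the sgPLOD2 libraries, against 17.3, 10.8 and 8.21 FPKM in the sgControl libraries. DANCR was level across all 6 libraries, whereas SNHG16 varied within both groups by nearly as much as the threshold used below to call a gene unstable.

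**Figure D2:**
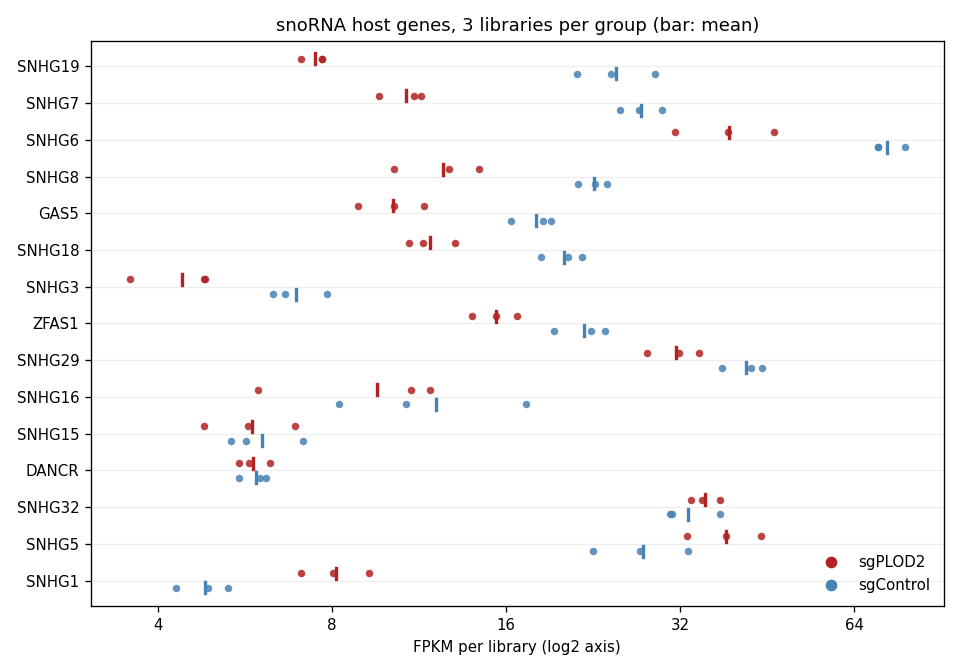
FPKM of the 15 snoRNA host genes in each of the 6 libraries (points, log2 axis) with the group mean as a bar, sgPLOD2 above sgControl within each gene, ordered by fold change. The points of both groups are apart in the upper 9 genes, all of which fell in sgPLOD2, and in SNHG1 at the bottom, which rose.

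The mature snoRNAs themselves were hardly seen. Of 32 snoRNA genes that GENCODE release 29 places within 14 of the hosts, 7 had a mean of at least 1 FPKM, the highest 3.39 FPKM, and single libraries of one gene differed by up to the full range between 0.0247 and 5.74 FPKM. Whether snoRNA levels followed their hosts was therefore not tested.

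The start of a host gene is shown here because a C at the first transcribed base followed by pyrimidines marks the terminal oligopyrimidine class, to which ribosomal protein mRNAs belong. RefSeq windows on GRCh38.p14 were held for 40 of the 71 members, 13 of them hosts. Each line gives 20 bases before and 30 from the annotated start, 5′ to 3′ on the gene's strand, with an uninterrupted pyrimidine run of at least 4 bases that begins with C at the start in capitals. The start is that of RefSeq. It equals the gene's start in the deposited table for SNHG19, SNHG7, SNHG18 and SNHG16, and differs from it by 37 to 464 bases in the other 9 of the 13, lying upstream of it in GAS5 and SNHG3, so the first transcribed base of those 9 is not settled by these annotations. The first 8 lines are those of the 9 hosts that fell for which a window was held, of which ZFAS1 and those before it have such a run and GAS5, SNHG8, SNHG3 and SNHG29 do not. SNHG32 was not called, and SNHG5, with a run, and SNHG1, without one, rose. They lie at chr16:2155329-2155378 (minus strand), chr9:136728155-136728204 (minus), chr5:9546180-9546229 (plus), chr20:49278622-49278671 (plus), chr1:173869016-173869065 (minus), chr4:118278742-118278791 (plus), chr1:28505923-28505972 (plus), chr17:16438967-16439016 (plus), chr6:31834896-31834945 (plus), chr6:85678704-85678753 (minus) and chr11:62855856-62855905 (minus).
SNHG19: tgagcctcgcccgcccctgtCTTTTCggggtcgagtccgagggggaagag
SNHG7: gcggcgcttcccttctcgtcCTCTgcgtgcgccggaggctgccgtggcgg
SNHG18: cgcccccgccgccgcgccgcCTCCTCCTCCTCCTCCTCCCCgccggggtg
ZFAS1: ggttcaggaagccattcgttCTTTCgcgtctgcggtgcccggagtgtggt
GAS5: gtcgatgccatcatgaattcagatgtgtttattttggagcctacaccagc
SNHG8: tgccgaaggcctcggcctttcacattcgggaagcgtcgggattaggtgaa
SNHG3: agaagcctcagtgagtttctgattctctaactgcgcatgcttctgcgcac
SNHG29: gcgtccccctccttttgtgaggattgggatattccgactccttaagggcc
SNHG32: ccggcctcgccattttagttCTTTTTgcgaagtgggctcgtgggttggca
SNHG5: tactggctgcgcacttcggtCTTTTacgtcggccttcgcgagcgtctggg
SNHG1: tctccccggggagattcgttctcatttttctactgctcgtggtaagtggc

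A C at the annotated start followed by at least 3 pyrimidines was present in 6 of 13 host windows (46.2%), 1 of 27 windows of other members (3.70%) and 5.45% of all 35116 windows, a definition chosen after the sequences were seen. The planned definition was a C followed by at least 5 pyrimidines that begins within 20 bases of the start on either side. With it, the shares were 69.2% of host windows, 48.1% of other members' windows and 33.8% of all windows. By the definition at the start itself, the tract was held by 4 of the 8 hosts that fell and 2 of the other 5. By the planned definition it was held by 5 of the 8 and 4 of the 5. Fallen and other hosts thus both included starts with and without it. ACGTG or GCGTG on either strand, the core letters of hypoxia response elements, occurred in 55.0% of the members' windows of 250 bases before to 50 after the start and in 48.4% of all windows. These matches describe letters in the windows only.

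Of 8 core proteins of snoRNA particles, 2 rose and 2 fell, close to the 29.5% and 23.5% of all tested genes called in each direction. These were the box C/D scaffold NOP56 and the box H/ACA protein GAR1 upward and the box H/ACA proteins NHP2 and NOP10 downward. NOP56 averaged 45.4 ± 0.750 FPKM in sgPLOD2 and 35.0 ± 1.46 FPKM in sgControl (0.37, adjusted p = 0.00540), NHP2 averaged 107 ± 7.66 FPKM in sgPLOD2 and 135 ± 11.2 FPKM in sgControl (-0.33, adjusted p = 0.0233), and the methyltransferase fibrillarin (FBL) averaged 82.8 ± 6.09 FPKM in sgPLOD2 and 98.4 ± 10.3 FPKM in sgControl without a call (adjusted p = 0.0850). The median of the 8 was -0.06.

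Nonsense-mediated decay factors, which degrade the spliced exons of several hosts, were called higher in 6 of 9 and lower in 2, against 29.5% and 23.5% of all tested genes, with a median of 0.49. The kinase SMG1 averaged 4.15 ± 0.924 FPKM in sgPLOD2 and 1.69 ± 0.413 FPKM in sgControl (0.93, adjusted p = 0.00349), the adaptor UPF2 averaged 4.96 ± 0.528 FPKM in sgPLOD2 and 2.39 ± 0.804 FPKM in sgControl (0.83, adjusted p = 0.00625) and the helicase UPF1 averaged 26.7 ± 1.86 FPKM in sgPLOD2 and 20.5 ± 1.45 FPKM in sgControl (0.37, adjusted p = 0.0135). UPF3B, SMG6 and SMG8 also rose, and UPF3A and SMG5 fell, SMG5 with 43.5 ± 1.59 FPKM in sgPLOD2 and 56.7 ± 3.68 FPKM in sgControl (-0.37, adjusted p = 0.00816). SMG9 was not called. Together the 9 factors summed to 97.1 to 106.6 FPKM in sgPLOD2 and 93.9 to 103.7 FPKM in sgControl, so the sums overlapped. Whether decay of host transcripts differed was not tested.

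Of 8 nuclear RNA decay factors, 7 passed the filter of 1 FPKM and 2 rose, the exosome helicase MTREX (0.83, adjusted p = 0.00327) and the poly(A)-binding protein PABPN1 (0.41, adjusted p = 0.0391), and the others were not called. Of 9 paraspeckle proteins, 3 rose and 1 fell. Both lists had a share of higher calls near the 29.5% of all tested genes. The largest of these was NONO, an RNA-binding core component of the paraspeckle, with 113, 178 and 116 FPKM in the sgPLOD2 libraries, against 33.5, 43.7 and 59.5 FPKM in the sgControl libraries. NONO was higher in each sgPLOD2 library than in any control (log2 fold change 1.56 ± 0.24 (SE), adjusted p = 0.00189), RBM14 and HNRNPH3 rose by less, and DAZAP1 fell (-0.63, adjusted p = 0.00308). The paraspeckle scaffold NEAT1 and the nuclear lncRNA MALAT1, abundant in most cells, summed to only 1.12 to 1.60 FPKM in sgPLOD2 and 0.494 to 1.03 FPKM in sgControl and are not among the members.

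Among the 56 lncRNAs that host no snoRNA, 14 rose, 20 fell and 22 were not called. Of all tested genes with at least 5 FPKM, 24.0% were called higher and 29% lower. The largest rise among these lncRNAs was that of AC245041.1 (GRCh38, chromosome 10, 47970043 to 47973496, minus strand), an intergenic lncRNA without an assigned function. It lies in a part of chromosome 10 known for segmental duplications, where copies can share reads. It had 11.1, 11.7 and 12.5 FPKM in the sgPLOD2 libraries, against 0.440, 0.960 and 0.668 FPKM in the sgControl libraries. All control libraries were below 1 FPKM and all sgPLOD2 libraries above 11 FPKM (log2 fold change 2.93 ± 0.13 (SE), adjusted p = 6.29e-06). LINC02984 (AC022034.1 in the table; GRCh38, chromosome 8, 53493523 to 53524336, minus strand) had 13.1, 13.8 and 12.4 FPKM in the sgPLOD2 libraries, against 2.19, 3.06 and 2.27 FPKM in the sgControl libraries. The groups were again far apart (log2 fold change 2.02 ± 0.12 (SE), adjusted p = 2.40e-05).

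WNT5A-AS1 (GRCh38, chromosome 3, 55487699 to 55488308, plus strand) is named for the noncanonical Wnt ligand gene WNT5A and annotated as antisense. It had 6.83, 12.1 and 10.8 FPKM in the sgPLOD2 libraries, against 0.0975, 1.66 and 0.718 FPKM in the sgControl libraries. Its levels differed more than 2-fold within sgControl, so it counts as unstable between libraries, but no sgPLOD2 library was near a control library (log2 fold change 2.64 ± 0.33 (SE), adjusted p = 0.000783). AC010776.2, antisense to the lymphangiogenic factor gene CCBE1, had 9.03, 8.14 and 7.91 FPKM in the sgPLOD2 libraries, against 1.72, 4.31 and 3.02 FPKM in the sgControl libraries (1.27, adjusted p = 0.00322). AC005288.1 on chromosome 17, annotated as antisense, had 7.97, 10.5 and 8.23 FPKM in the sgPLOD2 libraries, against 3.32, 3.49 and 3.38 FPKM in the sgControl libraries (1.16, adjusted p = 0.000277). Both rose with no overlap between groups.

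The other lncRNAs that rose did so by less than 1 on the log2 scale. APCDD1L-DT averaged 14.0 ± 0.298 FPKM in sgPLOD2 and 6.76 ± 1.22 FPKM in sgControl (0.97, adjusted p = 0.000911) and PRR11-AS1 (AC099850.3) averaged 21.3 ± 0.903 FPKM in sgPLOD2 and 10.7 ± 1.3 FPKM in sgControl (0.93, adjusted p = 0.000473). HOXA10-AS, transcribed within the HOXA cluster, averaged 9.10 ± 0.447 FPKM in sgPLOD2 and 5.83 ± 1.11 FPKM in sgControl (0.58, adjusted p = 0.00894). AC005332.6, LINC00958, FGD5-AS1, NUP153-AS1 (AL138724.1), AC092171.2 and PINK1-AS rose by 0.52, 0.50, 0.47, 0.45, 0.40 and 0.38. The call of FGD5-AS1 was lost without sgPLOD2 replicate 2 (0.41, adjusted p = 0.0558), without the chromosome medians (0.13, adjusted p = 0.383) and without the GC and length trend (0.28, adjusted p = 0.0955). That of NUP153-AS1 was lost without sgPLOD2 replicate 2 (0.41, adjusted p = 0.0592) and without the chromosome medians (0.11, adjusted p = 0.492), and that of PINK1-AS without the GC and length trend (0.25, adjusted p = 0.0660).

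The largest fall was that of MIR155HG (GRCh38, chromosome 21, 25561909 to 25575168, plus strand), also known as BIC, the host transcript of miR-155, a microRNA of activated lymphocytes and macrophages that NF-κB and AP-1 are known to induce. It had 1.40, 1.93 and 1.46 FPKM in the sgPLOD2 libraries, against 11.3, 7.96 and 9.38 FPKM in the sgControl libraries. The highest sgPLOD2 library lay well under the lowest control library, and 16.7% of the control mean was left (log2 fold change -2.02 ± 0.14 (SE), adjusted p = 6.78e-05). The fold change stayed between -2.51 and -1.90 under every alternative run. With a mean of 1.60 FPKM in sgPLOD2, MIR155HG was a member through sgControl only. The microRNA gene's own entry, MIR155, was listed at 0.0731, 0.0700 and 0.0572 FPKM in sgPLOD2 and 0.0742, 0.0713 and 0.0782 FPKM in sgControl, levels near 0 that say nothing of the mature microRNA, which a total RNA library of this kind measures poorly. The mature sequences that this transcript gives rise to, from RefSeq on GRCh38.p14, are shown with the seed, bases 2 to 8, in capitals; they lie at chr21:25573983-25574006 and chr21:25574022-25574043 on the plus strand, within the MIR155HG gene.
hsa-miR-155-5p: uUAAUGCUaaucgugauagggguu
hsa-miR-155-3p: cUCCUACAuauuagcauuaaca

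GAAA, any 2 bases and GAAA again, the letters of an interferon-stimulated response element, were searched on both strands. Of the 40 members with a RefSeq window, only MIR155HG held them. That is 2.5%, below the 3.57% of all windows, so the match does not set the members apart. The match begins at position -213 from the start that RefSeq gives, but that start lies 236 bases inside the MIR155HG bounds of the deposited table, so the match itself lies within those bounds. It is shown in capitals with 20 bases on each side, at chr21:25561912-25561961 on the plus strand of GRCh38.p14.
MIR155HG: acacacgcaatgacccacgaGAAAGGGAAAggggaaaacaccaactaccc

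Other falls followed at a distance. AC067773.1 on chromosome 8 had 4.83, 4.73 and 1.20 FPKM in the sgPLOD2 libraries, against 9.59, 11.2 and 10.8 FPKM in the sgControl libraries. It fell (log2 fold change -1.46 ± 0.36 (SE), adjusted p = 0.0125) but sgPLOD2 replicate 3 was far below the other sgPLOD2 libraries, so it counts as unstable, and 94.5% of its exon bases are shared with LINC01109 on the same strand. SLC9A3R1-AS1 (AC016888.1) had 7.68, 5.42 and 4.60 FPKM in the sgPLOD2 libraries, against 14.6, 11.7 and 19.4 FPKM in the sgControl libraries (-1.23, adjusted p = 0.00304). Its groups did not overlap although both were spread.

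AC027031.2, TBC1D22A-DT (AL118516.1) and FAM131B-AS2 (AC093673.1) fell by 0.97, 0.93 and 0.93 on the log2 scale, leaving 45.3%, 45.6% and 49.2% of the control mean. MIF-AS1, the most abundant called lncRNA of the set, had 52.2, 46.1 and 51.4 FPKM in the sgPLOD2 libraries, against 106, 77.2 and 100.4 FPKM in the sgControl libraries (log2 fold change -0.90 ± 0.13 (SE), adjusted p = 0.00142). LINC01508 averaged 3.84 ± 0.691 FPKM in sgPLOD2 and 7.92 ± 0.927 FPKM in sgControl (-0.89, adjusted p = 0.00169), LINC00973 averaged 7.67 ± 0.283 FPKM in sgPLOD2 and 14.4 ± 1.37 FPKM in sgControl (-0.83, adjusted p = 0.000492) and ARRDC1-AS1 averaged 3.53 ± 0.189 FPKM in sgPLOD2 and 6.54 ± 0.330 FPKM in sgControl (-0.73, adjusted p = 0.000547). No library overlapped in these genes.

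The other called falls were smaller, between -0.70 and -0.37, in MANCR, LINC00839, GIHCG, AC026401.3, AP001505.1, LINC01116, RNASEH1-AS1, AC003092.1, AL441992.1 (ZDHHC12-DT) and AC027307.2. MANCR, a lncRNA named for its rise in mitosis, had 6.04, 4.81 and 3.88 FPKM in the sgPLOD2 libraries, against 12.1, 7.72 and 6.50 FPKM in the sgControl libraries. Its groups were close at their edges, and its call was lost without sgControl replicate 2 (-0.76, adjusted p = 0.0513), sgPLOD2 replicate 2 (-0.70, adjusted p = 0.0886) or sgPLOD2 replicate 3 (-0.57, adjusted p = 0.114). The call of AC027307.2 was lost under 8 of the 19 alternatives, among them the omission of sgPLOD2 replicate 1 (-0.38, adjusted p = 0.0701), 2 (-0.32, adjusted p = 0.10) or 3 (-0.40, adjusted p = 0.0565). That of AL441992.1 was lost under 5, among them the omission of sgControl replicate 3 (-0.35, adjusted p = 0.0636), sgPLOD2 replicate 1 (-0.36, adjusted p = 0.0618) or sgPLOD2 replicate 2 (-0.32, adjusted p = 0.0764). AC003092.1 lost its call without sgPLOD2 replicate 3 (-0.39, adjusted p = 0.0520), AC026401.3 without the chromosome medians (-0.28, adjusted p = 0.0926) and AP001505.1 without the GC and length trend (-0.27, adjusted p = 0.0689), while RNASEH1-AS1 is described below with its partner. LINC00839 had 14.4, 13.5 and 13.7 FPKM in the sgPLOD2 libraries, against 20.3, 21.0 and 22.3 FPKM in the sgControl libraries (-0.58, adjusted p = 0.00102) and LINC01116 had 15.1, 13.5 and 14.2 FPKM in the sgPLOD2 libraries, against 22.4, 18.3 and 19.1 FPKM in the sgControl libraries (-0.45, adjusted p = 0.00821), and in both the groups were apart.

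**Figure D3:**
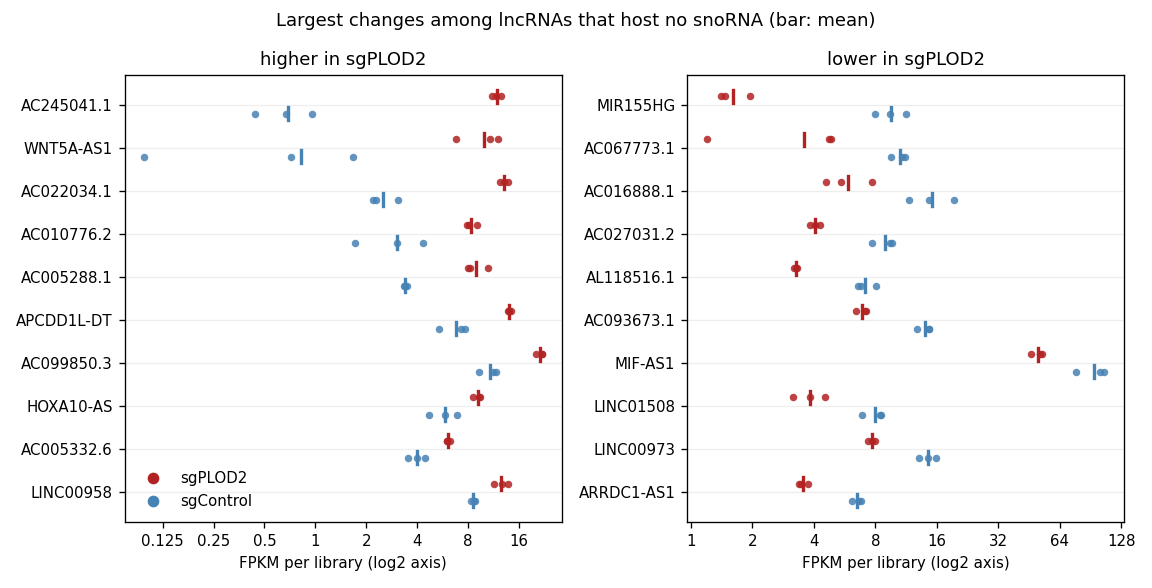
FPKM per library (points, log2 axes) with the group mean as a bar for the 10 largest called rises (left) and the 10 largest called falls (right) among lncRNAs that host no snoRNA, sgPLOD2 above sgControl within each gene. The points of both groups are apart in all 20 genes, and the gap is widest in AC245041.1, with 11.1 to 12.5 FPKM in sgPLOD2 and 0.440 to 0.960 FPKM in sgControl.

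NORAD, a cytoplasmic lncRNA that binds Pumilio proteins and is needed for stable chromosome number, had 10.4, 12.8 and 11.5 FPKM in the sgPLOD2 libraries, against 12.1, 19.6 and 15.1 FPKM in the sgControl libraries. Its groups overlapped and it was not called (-0.38, adjusted p = 0.0955). NORAD was called lower without sgControl replicate 1 (-0.54, adjusted p = 0.0156), without the GC and length trend (-0.69, adjusted p = 0.0147) and with replicate number as a block (-0.38, adjusted p = 0.0343). LINC01605, AC103702.2, CCDC183-AS1, TMEM99 (KRT10-AS1), TRIM52-AS1, HOXD-AS2, PITPNA-AS1, AL049840.6 and AC067852.2 (HSD17B1-AS1) were likewise not called, with fold changes between -0.28 and 0.25. AGAP2-AS1 and BX640514.2 (LINC02970) were not called either, at -0.31, adjusted p = 0.0644 and -0.38, adjusted p = 0.0503, although their groups did not overlap. AGAP2-AS1 was called lower without sgControl replicate 2 (-0.40, adjusted p = 0.0300), as was TRIM52-AS1 (-0.36, adjusted p = 0.0344). AGAP2-AS1 was also called lower under median-of-ratios scaling (-0.37, adjusted p = 0.0387) and with replicate number as a block (-0.31, adjusted p = 0.0360). BX640514.2 was called lower without sgControl replicate 1 (-0.49, adjusted p = 0.0108). It was also called lower under median-of-ratios scaling (adjusted p = 0.0310), quantile normalization (adjusted p = 0.0211), no intensity trend (adjusted p = 0.0485) and robust estimation (adjusted p = 0.0490). PITPNA-AS1 was called higher without sgPLOD2 replicate 3 (0.37, adjusted p = 0.0385) and with the same total per library (0.36, adjusted p = 0.0434). With chromosome medians removed, AL049840.6 (-0.82, adjusted p = 0.0134) and TMEM99 (-0.30, adjusted p = 0.0494) were called lower. With the GC and length trend removed, AC103702.2 was called higher (0.41, adjusted p = 0.00666).

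Of the 71 lncRNAs, 37 share at least 1 exon base with another gene, and 26 pairs of a lncRNA with a tested protein-coding gene that it overlaps or is named for could be formed from 23 lncRNAs. Both partners were called in 13 pairs, in the same direction in 12, while only the lncRNA was called in 6, only the protein-coding gene in 5 and neither in 2. Of all tested protein-coding genes 54.2% were called, 30.9% as higher and 23.4% as lower, and of the 71 lncRNAs 63.4% were called. These are shares of single genes, so they are no direct measure for pairs with both called. Such a share of pairs over all genes was not computed. A fragment from exons shared on opposite strands cannot be assigned without knowing its strand. The strand setting of these libraries is not given in the sources used here, so the lncRNA's level can include reads of its partner wherever exons are shared. PINK1-AS shares 427 exon bases with DDOST (119 FPKM in sgPLOD2, 133 FPKM in sgControl, not called) and SNHG3 shares 242 with RCC1. Both overlaps are on the same strand, where strand would not tell the reads apart. Of the 34 lncRNAs that share no exon base, 8 rose and 15 fell, against 24.0% and 29% of tested genes with at least 5 FPKM.

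In pairs without shared exon bases, reads of the partner's annotated exons do not fall in exons of the lncRNA. Whether reads of a partner's introns do was not tested. WNT5A averaged 14.6 ± 1.56 FPKM in sgPLOD2 and 2.03 ± 0.134 FPKM in sgControl (2.36, adjusted p = 6.22e-06). The level of WNT5A-AS1 relative to WNT5A was 51.7% to 75.6% in sgPLOD2 and varied between 4.54% and 80.7% within sgControl, and its fold change was 3.89 with a pseudocount of 0.1. APCDD1L, named for its likeness to the Wnt inhibitor gene APCDD1, averaged 21.3 ± 1.41 FPKM in sgPLOD2 and 4.33 ± 0.605 FPKM in sgControl (2.07, adjusted p = 1.55e-05), a larger rise than that of the divergent APCDD1L-DT. The level of APCDD1L-DT relative to APCDD1L was 60.3% to 69.8% in sgPLOD2 and 109% to 196% in sgControl. TBC1D22A averaged 5.21 ± 0.622 FPKM in sgPLOD2 and 8.62 ± 0.0246 FPKM in sgControl (-0.64, adjusted p = 0.00185), and it fell as its divergent transcript did. ZDHHC12 was not called (-0.36, adjusted p = 0.145).

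Where exons are shared, the ratio of both levels shows how closely they ran together. MIF-AS1 shares 46.5% of its exon bases with MIF, the gene of a cytokine that inhibits macrophage migration, and its level was 12.5% to 12.9% in sgPLOD2 and 12.2% to 13.8% in sgControl of that of MIF, nearly a fixed ratio, MIF itself averaging 392 ± 21.3 FPKM in sgPLOD2 and 739 ± 119 FPKM in sgControl (-0.90, adjusted p = 0.00128). The call of MIF-AS1 was lost without the GC and length trend (-0.31, adjusted p = 0.0952). SLC9A3R1, a scaffold of membrane transporters, averaged 17.5 ± 1.93 FPKM in sgPLOD2 and 39.0 ± 2.17 FPKM in sgControl (-1.12, adjusted p = 0.000190), PRR11, a cell cycle gene, averaged 26.7 ± 3.62 FPKM in sgPLOD2 and 13.3 ± 3.60 FPKM in sgControl (0.98, adjusted p = 0.00571), and PINK1, the kinase that starts mitophagy, averaged 24.4 ± 1.73 FPKM in sgPLOD2 and 14.2 ± 0.50 FPKM in sgControl (0.74, adjusted p = 0.000498). Each was called in the direction of its antisense lncRNA.

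NUP153, a nuclear pore protein gene, rose far more than NUP153-AS1, averaging 20.6 ± 2.49 FPKM in sgPLOD2 and 6.52 ± 0.698 FPKM in sgControl (1.52, adjusted p = 9.84e-05), so the lncRNA stood at 66.1% to 82.2% in sgPLOD2 and 142% to 197% in sgControl of the level of its partner. RNASEH1, whose enzyme removes RNA from RNA-DNA hybrids, was the exception in direction. It averaged 18.6 ± 2.01 FPKM in sgPLOD2 and 13.2 ± 2.97 FPKM in sgControl (0.48, adjusted p = 0.0455), while RNASEH1-AS1 had 9.48, 8.16 and 7.74 FPKM in the sgPLOD2 libraries, against 13.1, 10.7 and 11.4 FPKM in the sgControl libraries (-0.43, adjusted p = 0.0155). The lncRNA's call was lost without sgPLOD2 replicate 2 (-0.40, adjusted p = 0.0558), without sgPLOD2 replicate 3 (-0.37, adjusted p = 0.0555) and without the GC and length trend (-0.22, adjusted p = 0.151).

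Other partners moved while the lncRNA was not called. BCL2L1, the gene of the survival protein BCL-XL, averaged 39.9 ± 0.757 FPKM in sgPLOD2 and 58.8 ± 0.291 FPKM in sgControl (-0.55, adjusted p = 0.000787), whereas ABALON, which shares 74.8% of its exon bases with it on the opposite strand, had 8.61, 7.78 and 9.36 FPKM in the sgPLOD2 libraries, against 6.08, 10.5 and 8.13 FPKM in the sgControl libraries (0.08, adjusted p = 0.727). VIM fell (-0.36, adjusted p = 0.0473) and VIM-AS1 averaged 7.84 FPKM in sgPLOD2 and 10.3 FPKM in sgControl with overlapping groups (-0.34, adjusted p = 0.346). KRT10, CCDC183 and SLC4A2 also fell beside TMEM99, CCDC183-AS1 and AC010973.2, which were not called.

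**Figure D4:**
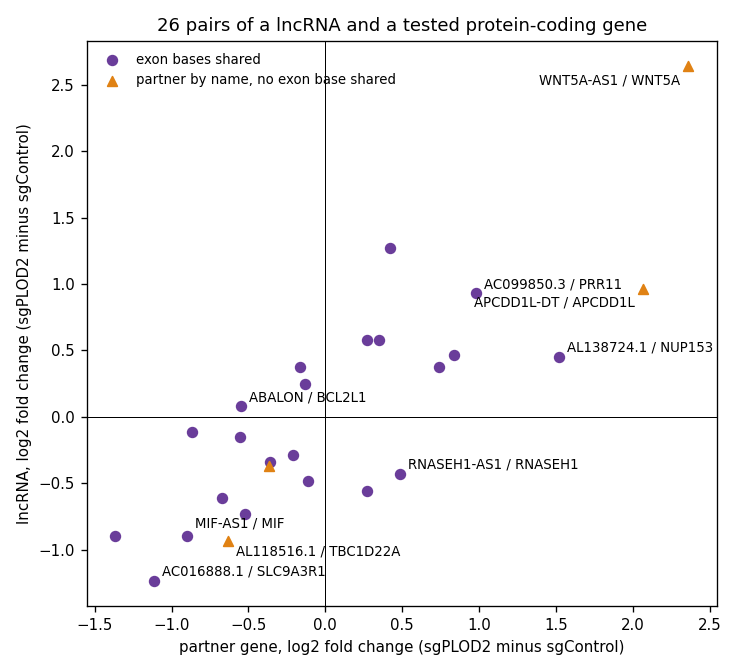
Log2 fold change (sgPLOD2 minus sgControl) of the protein-coding partner (x axis) against that of the lncRNA (y axis) for the 26 pairs with a tested partner, with circles where exon bases are shared and triangles where the partner is given by name alone. Most points lie in the lower left and upper right, and RNASEH1-AS1 with RNASEH1, at -0.43 and 0.48, is the pair called in opposite directions.

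The most abundant entries lie in ribosomal RNA genes. FP236383.5, FP236383.4, FP671120.6 and FP671120.7 on chromosome 21 are each 923 bases long and fall within genes that RefSeq annotates as 18S ribosomal RNA (RNA18SN1, RNA18SN3, RNA18SN2 and the pseudogene RNA18SP5), and 3 of them have identical sequences, so reads may have been split among them. FP236383.5 had 2276, 1718 and 1149 FPKM in the sgPLOD2 libraries, against 1119, 1368 and 696 FPKM in the sgControl libraries. The mean was higher in sgPLOD2, but the spread within each group was wide and the groups overlapped in all 4 entries, none of which was called, with fold changes of 0.62 to 0.69 and adjusted p between 0.0845 and 0.115. FP671120.6 was called higher without sgControl replicate 2 (0.85, adjusted p = 0.0461) or sgPLOD2 replicate 3 (0.88, adjusted p = 0.0460), and FP671120.7 without sgPLOD2 replicate 3 (0.84, adjusted p = 0.0491). With the GC and length trend removed, FP236383.5, FP671120.6 and FP671120.7 were called higher, with adjusted p of 0.0463, 0.0353 and 0.0394. With replicate number as a block, all 4 were called higher, with adjusted p between 0.0174 and 0.0251. FP236383.4 was also called higher after quantile normalization (adjusted p = 0.0378), and FP671120.6 with the same total per library (adjusted p = 0.0466).

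The 4 ribosomal entries took 0.622% to 1.18% of all FPKM in sgPLOD2 and 0.342% to 0.698% in sgControl, and the 67 other members 0.366% to 0.376% in sgPLOD2 and 0.398% to 0.443% in sgControl. FP236383.4 stood at 17.5% to 18.5% of FP236383.5 in every library of both groups. Their levels thus moved together from library to library, and whether residual ribosomal RNA differs in these libraries was not tested. TUBA1B-AS1 (AC011603.3), the next most abundant entry, had 137, 126 and 148 FPKM in the sgPLOD2 libraries, against 221, 115 and 185 FPKM in the sgControl libraries, shares 80.2% of its exon bases with the α-tubulin gene TUBA1B and was not called (-0.29, adjusted p = 0.317), except without sgControl replicate 2 (-0.56, adjusted p = 0.0108).

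Instability between libraries was marked where the highest FPKM + 1 within a group was at least 2 times the lowest. That held for 6 members, FP236383.4, WNT5A-AS1, AC067773.1, AC010973.2, AC092718.4 and AC092368.3, of which WNT5A-AS1 was called higher and AC067773.1 lower. AC092368.3 on chromosome 16 had 4.82, 4.62 and 4.32 FPKM in the sgPLOD2 libraries, against 10.9, 0.910 and 8.09 FPKM in the sgControl libraries. A single library, sgControl replicate 2, lay far below the other controls, and without it the gene was called lower (-0.90, adjusted p = 0.00331), against -0.08, adjusted p = 0.919 with all libraries. AC010973.2, which shares 58.0% of its exon bases with the anion exchanger gene SLC4A2, had 3.64, 4.01 and 3.73 FPKM in the sgPLOD2 libraries, against 8.13, 3.34 and 8.91 FPKM in the sgControl libraries. The same control library was the low one, and without it AC010973.2 too was called lower (-0.99, adjusted p = 0.000800).

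AC092718.4, which lies within an intron on the sense strand per GENCODE release 29, had 6.21, 6.04 and 5.31 FPKM in the sgPLOD2 libraries, against 15.1, 7.00 and 7.25 FPKM in the sgControl libraries. Here sgControl replicate 1 was the high one, and the groups did not overlap although the gene was not called (-0.58, adjusted p = 0.102). Among the 65 stable members, 15 were called higher and 28 lower, against 24.0% and 29% of tested genes with at least 5 FPKM.

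**Figure D5:**
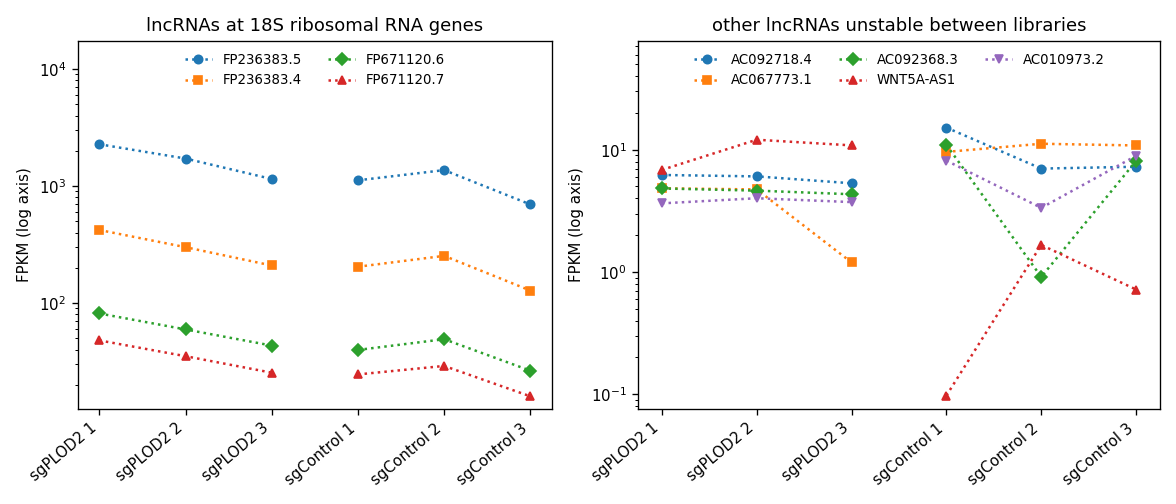
FPKM per library (log axes) of the 4 lncRNAs at 18S ribosomal RNA genes (left) and of the 5 other lncRNAs that were unstable between libraries (right), with dotted lines joining the values of one gene within a group. The 4 ribosomal entries run in parallel over the libraries, whereas AC092368.3 drops to 0.910 FPKM in sgControl replicate 2 and AC067773.1 to 1.20 FPKM in sgPLOD2 replicate 3.

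The 71 lncRNAs lay on 20 chromosomes, with 10 on chromosome 17 and 6 each on chromosomes 7 and 21. On chromosome 9, 4 of 5 members were called lower, where the 440 tested genes had a median fold change of -0.11, and on chromosome 3, where that median was 0.33, 2 of 3 members were called higher. Elsewhere calls went both with and against the median. On chromosome 11 it was 0.19 and 2 of 2 members were higher. On chromosome 2 it was 0.16 and 2 of 3 were lower, and on chromosome 21 it was 0.10 and 2 of 6 were lower. Of all tested genes, 29.5% were called higher and 23.5% lower. The members' median GC content was 51.0% and their median transcript length 1093 bases, against 49.3% and 3293 bases over all tested genes. Across the 71 genes, which are not independent replicates, fold change had a Pearson correlation of 0.14 and a Spearman correlation of 0.13 with GC content. With log2 length these were 0.04 and 0.11.

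At the threshold, AC005332.6, ARRDC1-AS1 and AL118516.1 were just inside with means over 6 libraries of 5.03, 5.04 and 5.20 FPKM, and ATP2A1-AS1, NRAV and TP53TG1 were just outside with 4.96, 4.88 and 4.85 FPKM. TGFB2-OT1 was also close, at 4.84 FPKM, through sgControl replicate 1 alone, where it had 28.6 FPKM against at most 0.110 FPKM in the other libraries.

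The authors' deposited table called 13 members higher and 34 lower at its adjusted p under 0.05, where 18.5% and 17.0% of the 22870 genes with an adjusted p in that table were called higher and lower. Its call and the limma call were the same for 63 of 71 members. In the other 8 the authors' deposited table alone made a call for 5 and limma alone for 3, and no gene was called in opposite directions.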

How the data were processed

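Per the file headers, the authors deposited an FPKM value for every gene in each library. The submitters' processing notes name CASAVA, HISAT2 2.1.0, StringTie 1.3.4 and GRCh38, with no roles. How fragments were counted, with which annotation and strand setting, is not given in the sources used here. The authors' deposited table also holds its own comparison, as a mean normalized signal, a log2 fold change, its error, a score for the test, and each p-value raw and adjusted, per the file headers. Absolute depth is unknown, so no counting interval is given.

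Deposited FPKM values were transformed to log2(FPKM + 1) and fitted with lmFit and eBayes (intensity trend) in limma 3.58.1, run in R 4.3.3, as sgPLOD2 minus sgControl. All 10469 genes that averaged 1 FPKM or more entered the fit, among them all 71 members. The tests were 2-sided, and Benjamini-Hochberg adjustment ran over every gene fitted. The fit was tested on simulated data. The members, lists and rules were chosen with earlier results of these data known. The rule named all snoRNA hosts, the 8 highest members, the 12 largest called changes in each direction, microRNA hosts, members named for a protein-coding partner, unstable members and the 3 lncRNAs on each side of the threshold. A few genes of the lists are not reported here. Other members, and TGFB2-OT1, were named after their values had been seen. Exons and overlaps came from GENCODE release 29, which held all 71 identifiers, 55 with the same gene start, and current names and sequences from RefSeq tables.

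Alternatives changed the pseudocount (0.1, 0.5), the filter (none, 5 FPKM), the scaling (equal library totals, also with ribosomal protein and mitochondrial genes left out; median of ratios; quantiles), the eBayes options (no trend, robust), the block by replicate number, and the libraries included. Chromosome medians, or a smooth GC and length trend (mgcv 1.9.3), were also subtracted. Counts without lncRNAs that share exons or lie at ribosomal RNA genes were added after seeing the data. Replicate numbers did not pair the libraries.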

Additional observations from a re-analysis of the deposited data

How the results depend on the processing

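Of 71 members under 19 settings, the calls of 12 of 16 lncRNAs that rose and 19 of 29 that fell held under every alternative, 1 of 2 and 7 of 9 among snoRNA hosts. The members' median, -0.30, was -0.18 and -0.21 with the same total per library (all genes, or without mitochondrial and ribosomal protein genes), -0.36 under median-of-ratios scaling and -0.089 once the smooth GC and length trend was subtracted. The median of all genes was 0.16 with the same total per library, against 0.06 as deposited. The hosts that rose numbered 1, SNHG1, with no filter, under median-of-ratios scaling and with chromosome medians removed. HOXD-AS2 and AC067852.2, not called at -0.18 and -0.10, were called higher under that subtraction (0.41 and 0.35, adjusted p = 0.0136 and 0.0144) and lower with chromosome medians removed (-0.34 and -0.25, adjusted p = 0.0285 and 0.0422). Unstable members numbered 19 at a ratio of 1.5 and 1 at a ratio of 3, against 6. Counting only lncRNAs that share no exon base gave 8 higher and 15 lower, by construction fewer. Other causes were not tested.

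Leaving out 1 library at a time gave 13 to 19 members higher and 24 to 32 lower, 1 to 2 hosts higher and 8 to 9 lower, a members' median of -0.35 to -0.20, 26 to 40 called partner and pathway genes and a PLOD2 fold change of -1.81 to -1.47. With the replicate block, 20 members were higher and 31 lower, and no call was lost. The added calls were the 4 entries at ribosomal RNA genes, as higher, and AGAP2-AS1 and NORAD, as lower. Same-numbered libraries correlated at 0.0135, 0.135 and -0.0491, and 2 of 6 correlated best with their own number, so the numbers were not treated as pairs. The labels do not give depth or strand, and FPKM near the threshold rests on an unknown number of reads.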
